A study of Homo sapiens with 115 samples.

Results

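The ESCRT subunits are the proteins that build the endosomal sorting complexes required for transport, and here they are 31 genes, chosen by name from the 43386 entries of the count table. They comprise 3 subunits of ESCRT-0, 9 of ESCRT-I, 3 of ESCRT-II, 12 of ESCRT-III (IST1 included), the AAA ATPases VPS4A and VPS4B with their cofactor VTA1, and the ESCRT-III adaptor ALIX (PDCD6IP). All 31 had an entry, and all 31 passed the filter on low counts.

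The cells were HCT116, an epithelial line from a human colorectal carcinoma, followed after X-ray irradiation with 8 Gy. Single cells were picked under a microscope and their full-length cDNA was sequenced (SMART-seq), which gave 43 p53-/- and 72 p53+/+ libraries of 1 cell each by their labels. The text of the study splits the cells differently between the lines, and the labels were used here. The 5 stages were unirradiated cells [N] (day 0), radiation-tolerant persister (RTP) cells before budding [P] (day 7), budding RTP cells [B] and the small newly budded progeny [S] (both day 10), and repopulated cells [R] (day 30). The treatment label of the [N] cells also reads 8 Gy, while the methods of the study call these cells untreated. Each stage was sampled in HCT116 p53-/- and HCT116 p53+/+, with 7 and 6 cells at [N], 11 and 6 at [P], 8 and 28 at [B], 9 and 21 at [S], and 8 and 11 at [R]. Each genotype was 1 line made by homologous recombination, so a difference between genotypes cannot be told apart from a difference between these 2 lines. No label names a culture, so the cells of 1 stage and line were pooled by adding their counts, and the comparisons rest on 10 sums (n = 2 per stage).

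Totals ran over 4056329 to 100173192 counts per cell (median 34238237), with 5911 to 19258 genes detected. The epithelial markers together reached 5346 to 16236 CPM (counts per 1000000 counts of the library) per sum. COL1A2, DCN, LUM, PTPRC and CD3E, which define fibroblasts and blood cells, stayed at or near 0, although CD68 and COL1A1 carried most of the counts of their lists (5.58 to 39.8 CPM and 2.10 to 8.79 CPM). The share of mitochondrial ribosomal RNA had a median of 1.06% at [N], 3.13% at [P], 4.59% at [B], 3.74% at [S] and 2.24% at [R], and its part in the results was not tested. Cell names begin with a number that the labels do not explain. [R] cells shared none of these prefixes with another stage, so stage and prefix cannot be told apart for [R], while [N] and [P] shared 1 prefix in both lines and [B] and [S] shared 11 combinations of prefix and line. A [B] p53-/- cell of prefix 1206 had the lowest value of its group in 6 of the 16 subunits named for their fold changes, and 5 other cells had under 9000 genes detected. The edgeR comparisons of the 10 sums were also run without that [B] cell and without these 5 cells, and 0 subunits were called there too. DESeq2 and the other alternative fits were not run without them.

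ESCRT proteins bend and cut membranes from the inside of the neck. ESCRT-0 (HGS and STAM or STAM2) gathers ubiquitinated cargo on endosomes, ESCRT-I (TSG101, VPS28, a VPS37 and an MVB12 or UBAP1) and ESCRT-II (VPS36, SNF8, VPS25) follow, and charged multivesicular body proteins (CHMPs) polymerise into the ESCRT-III filaments that constrict the neck. VPS4 then pulls the filaments apart. The same filaments sever the bridge between dividing cells, reached there through the midbody protein CEP55 with ALIX and TSG101. They also release enveloped viruses and seal the nuclear envelope. The study described the division of RTP cells as budding and reported high ESCRT expression in budding cells. It showed violin plots of several subunits and protein staining of CHMP2A and VPS28. From its single-cell profiles it also reported enrichment of gene sets for HIV virion assembly and budding in budding against pre-budding cells. Gene sets were not tested here. The question here is how the RNA of this machinery stood at each stage, and protein was not examined.

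Levels were compared between genes only per kilobase of the GENCODE canonical transcript. CHMP2A, a core ESCRT-III subunit, led with 223 ± 78.4 CPM per kilobase (mean and SD over the 10 sums). The ESCRT-II subunit VPS25 had 132 ± 26.2 CPM per kilobase. TSG101, the ESCRT-I subunit that binds ubiquitin and viral late domains, had 100.6 ± 13.01 and VPS28, which links ESCRT-I to ESCRT-II, had 99.9 ± 35.05 CPM per kilobase, which did not differ beyond their spread. At the low end stood VPS37D with 0.502 ± 0.261, MVB12B with 0.697 ± 0.229 and VPS37C with 2.22 ± 0.741 CPM per kilobase, and VPS37D had a count in 73 cells. CHMP4B and STAM2, at 4.62 ± 3.10 and 4.51 ± 1.33 CPM per kilobase, were neighbours in this order and overlapped. The 10 sums of a subunit lay closest together for SNF8, whose highest sum was 1.38 times its lowest, and for TSG101 at 1.64 times. CHMP4B spread furthest, at 13.6 times, ahead of VPS37D (5.89 times) and VPS37B (5.82 times). Summed over the 31 subunits, the level per sum stayed within 2373 to 2910 CPM.

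**Figure D1:**
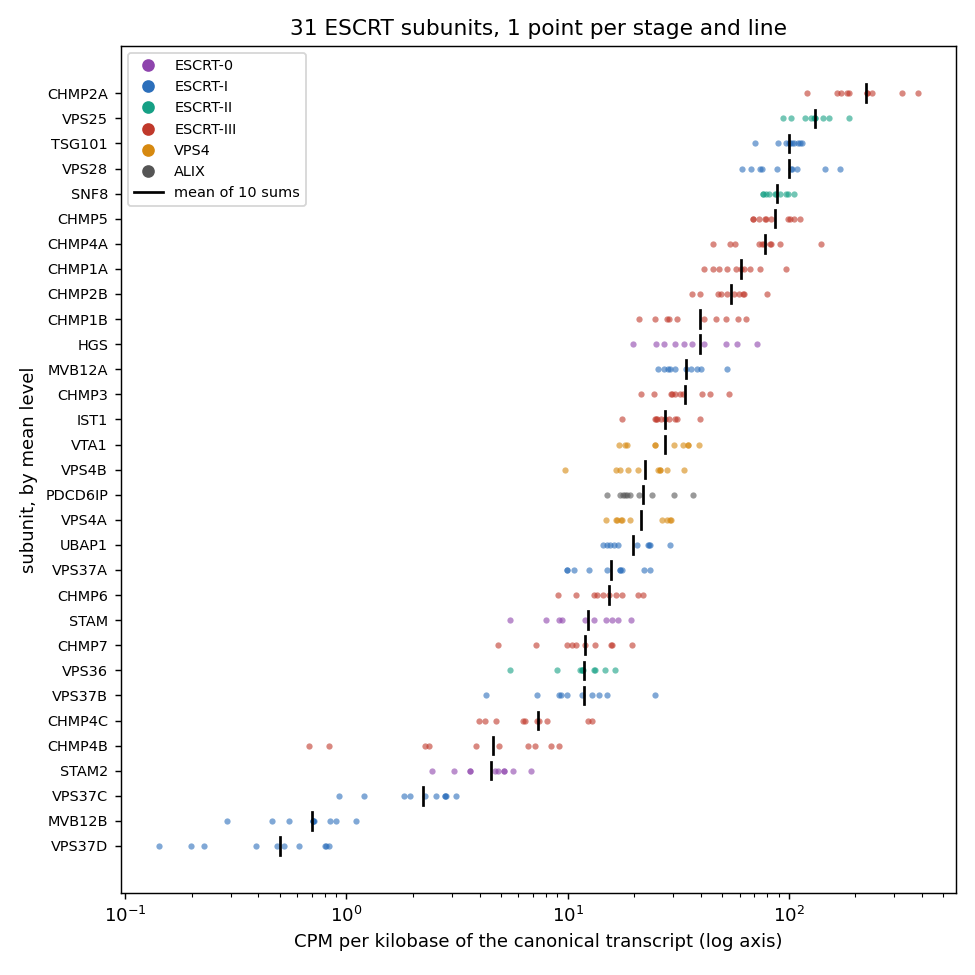
CPM per kilobase (log axis) of the 31 ESCRT subunits in the 10 sums, 1 point per stage and line, coloured by complex, with the mean as a black bar. CHMP2A is highest at a mean of 223 and VPS37D lowest at 0.502 CPM per kilobase, and CHMP4B has the 2 points farthest below its mean, both from [R].

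Across the stages no ESCRT subunit passed the test of edgeR (quasi-likelihood, Benjamini-Hochberg adjustment over 19894 genes, threshold 0.05). In this fit the sums were not paired by line. The count was 0 of 31 for [P] against [N], where 0.0201% of all genes passed, and 0 of 31 for [B] against [N], where 0.658% did. It was 0 of 31 for [S] against [N] (0.0704% of all genes), for [R] against [N] (0%), for [B] against [P] (0%), for [S] against [B] (0%) and for [R] against [S] (0.0201%). At an unadjusted p under 0.05 stood 3 of 31 subunits for [P] against [N], all lower, where 4.9% of all genes were lower at that threshold and 11.9% stood there in either direction. For [B] against [N] 3 were higher (9.37% of all genes) and 1 was lower (9.16%), out of 18.5% of all genes in either direction. For [S] against [N] 2 were higher (7.84%, and 13.3% in either direction). For [R] against [N] 1 was higher (4.47%) and 3 were lower (4.13%), with 8.6% in either direction. None stood there for [B] against [P] (5.18% of all genes) or [S] against [B] (4.19%). For [R] against [S] 1 was higher (6.11%) and 1 was lower (9.01%), with 15.1% in either direction. DESeq2 called 2 subunits for [B] against [N], where it called 10.6% of all genes. It called 1 subunit each for [S] against [N] (4.7% of all genes), [R] against [N] (1.91%) and [R] against [S] (6.99%). It called 0 for [P] against [N] (3.84%), [B] against [P] (0.643%) and [S] against [B] (0.251%). The median log2 fold change of the 31 was -0.08 for [P] against [N] (0.15 over all genes), -0.06 for [B] against [N] (0.20) and -0.06 for [S] against [N] (0.15). It was 0.12 for [R] against [N] (0.02), 0.09 for [B] against [P] (0.02), -0.01 for [S] against [B] (0.01) and 0.02 for [R] against [S] (-0.08).

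**Figure D2:**
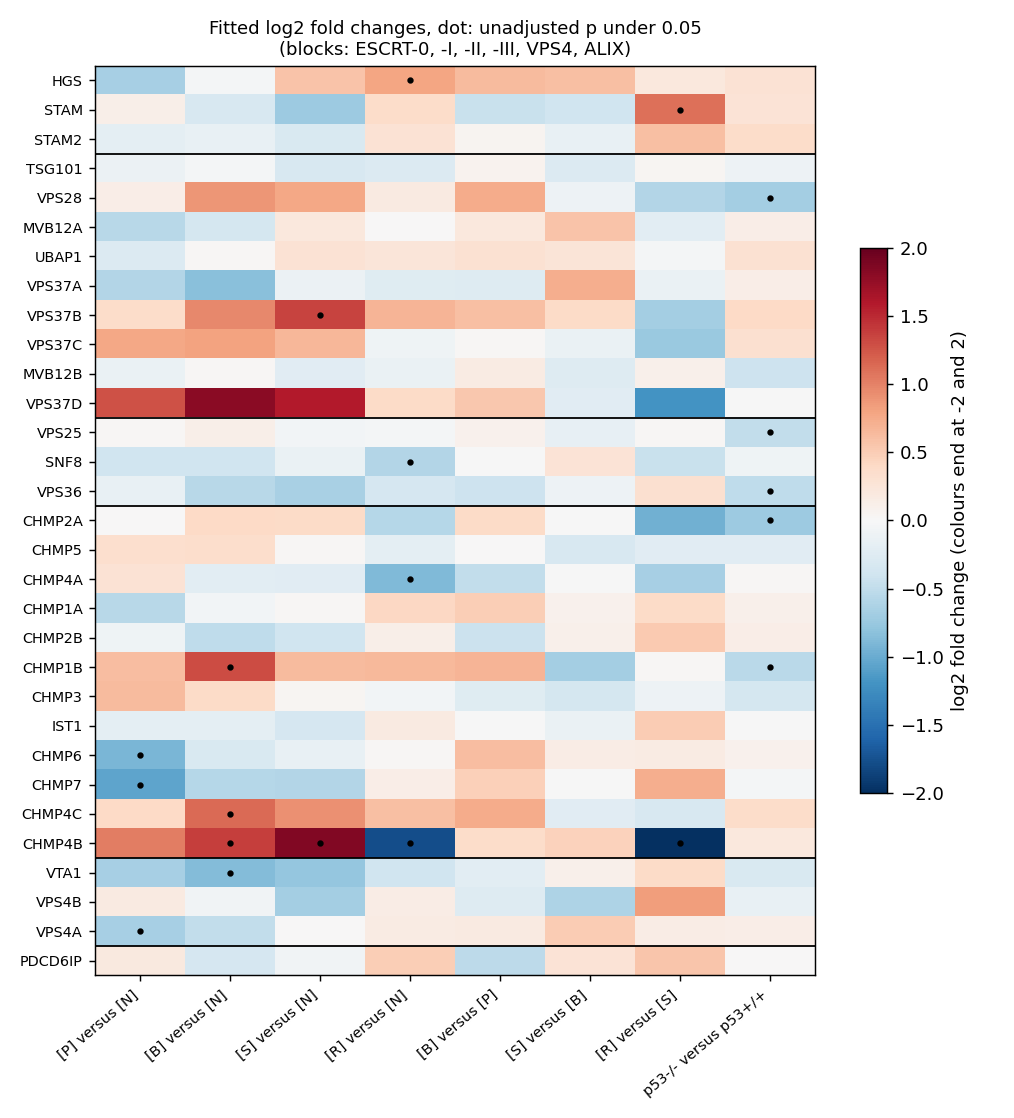
Fitted log2 fold changes of the 31 ESCRT subunits (rows, by complex) in the 8 comparisons (columns), first-named group over second-named, with a dot where the unadjusted p is under 0.05. No cell of the map passed the adjusted threshold, and CHMP4B holds the most extreme value, -3.62 for [R] against [S].

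The promoters of CHMP4B, CHMP1B and CHMP2A are shown because these are the ESCRT-III subunits that DESeq2 called in at least 1 comparison. That of CHMP4A is shown because this paralogue had most of the CHMP4 counts per kilobase, although its level is uncertain. All sequences are the 250 bases before the RefSeq start (GRCh38.p14, transcribed strand, 5′ to 3′). CHMP4B lies at chr20:33811098-33811347 (+), CHMP4A at chr14:24213489-24213738 (-), CHMP1B at chr18:11851163-11851412 (+) and CHMP2A at chr19:58555106-58555355 (-). Capitals mark matches on either strand to the motifs CACGTG (the E-box), GGGCGG (the GC box), TGACGTCA (the cAMP response element), GCATGCGC (part of the NRF1 motif), ACTACAA (part of the ZNF143 motif) and CCAAT (the CCAAT box), which were picked with these sequences in view.
CHMP4B: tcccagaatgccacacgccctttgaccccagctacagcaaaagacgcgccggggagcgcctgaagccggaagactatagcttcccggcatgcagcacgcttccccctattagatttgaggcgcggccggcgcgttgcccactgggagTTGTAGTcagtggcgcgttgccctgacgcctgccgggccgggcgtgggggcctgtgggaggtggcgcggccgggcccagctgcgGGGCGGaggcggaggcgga
CHMP4A: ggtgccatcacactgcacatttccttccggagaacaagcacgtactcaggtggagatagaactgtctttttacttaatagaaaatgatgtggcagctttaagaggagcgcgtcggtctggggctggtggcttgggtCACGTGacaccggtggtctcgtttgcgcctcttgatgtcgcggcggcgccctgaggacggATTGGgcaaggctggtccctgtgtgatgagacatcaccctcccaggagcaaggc
CHMP1B: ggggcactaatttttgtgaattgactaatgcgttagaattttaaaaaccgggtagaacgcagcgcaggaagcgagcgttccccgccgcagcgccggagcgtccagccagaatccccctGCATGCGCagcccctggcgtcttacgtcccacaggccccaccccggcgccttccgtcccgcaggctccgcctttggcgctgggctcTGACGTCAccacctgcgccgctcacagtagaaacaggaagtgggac
CHMP2A: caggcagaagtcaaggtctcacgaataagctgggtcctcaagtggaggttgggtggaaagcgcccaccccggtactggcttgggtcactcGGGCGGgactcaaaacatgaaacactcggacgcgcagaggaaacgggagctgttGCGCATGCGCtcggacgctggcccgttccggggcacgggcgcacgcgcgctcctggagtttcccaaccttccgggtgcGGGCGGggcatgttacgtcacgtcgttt
CHMP4B held ACTACAA, read on the other strand, and GGGCGG, while CHMP4A held CACGTG and CCAAT. CHMP1B held TGACGTCA and GCATGCGC. CHMP2A held GGGCGG at 2 places and GCATGCGC on both strands, with the matches overlapping. Among 35116 promoter windows of the same length, 2.47% had ACTACAA, 1.65% TGACGTCA, 2.63% GCATGCGC, 6.34% CACGTG, 32.01% CCAAT and 42.6% GGGCGG. Of the 24 subunits with an entry in the promoter table, 1 had ACTACAA, 3 TGACGTCA (VPS37B and UBAP1 beside CHMP1B), 2 GCATGCGC, 3 CACGTG, 7 CCAAT and 14 GGGCGG. A p53 half-site was searched for as well. Among the 24 it matched only in IST1, whose promoter is not shown, and it was in 5.57% of the windows. A match is a description of the letters and was not tested against the levels.

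CHMP4B, 1 of 3 CHMP4 paralogues that form the core of the ESCRT-III filament, had its lowest levels at [R] and its highest at [B] or [S]. Its level in p53-/- cells was 3.80 CPM at [N], 10.6 at [P], 13.5 at [B], 11.4 at [S] and 1.34 at [R]. In p53+/+ cells it was 3.63 CPM at [N], 6.18 at [P], 7.86 at [B], 14.7 at [S] and 1.08 at [R]. In both lines the [R] sum was the lowest of the 5 stages and the [N] sum the next. Per cell, [R] ran from 0 to 3.06 CPM (median 1.31, 8 cells) in p53-/- and from 0 to 4.36 CPM (median 0.736, 11 cells) in p53+/+. The [S] cells ran from 0 to 23.8 CPM (median 10.7, 9 cells) in p53-/- and from 0 to 75.3 CPM (median 12.4, 21 cells) in p53+/+. The stages overlapped, since 3 of 9 p53-/- and 2 of 21 p53+/+ [S] cells had no CHMP4B count, while 6 of 9 and 15 of 21 [S] cells lay above the highest [R] cell of their line. [B] cells ran from 3.68 to 49.9 CPM (median 13.3) in p53-/- and from 0 to 33.6 CPM (median 6.45) in p53+/+. [N] cells ran from 0.317 to 12.3 CPM (median 2.53) in p53-/- and from 0 to 7.30 CPM (median 4.92) in p53+/+.

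The fitted log2 fold change of CHMP4B was -3.62 ± 0.51 (SE, n = 2 sums per stage) for [R] against [S], with an adjusted p of 0.0566 by edgeR. The labels pair the sums by cell line, and with the line as a block the value was -3.65 ± 0.49 with an adjusted p of 0.0441, so that CHMP4B fell in [R] relative to [S] in that fit, in which 0.382% of all genes were called. For [R] against [N] it was -1.78 ± 0.47 (adjusted p 0.563 by edgeR), for [S] against [N] 1.84 ± 0.47 (adjusted p 0.214) and for [B] against [N] 1.39 ± 0.47 (adjusted p 0.163). DESeq2 on the same sums called all 4 of these comparisons, with an adjusted p of 5.36e-12 for [R] against [S], 0.0123 for [R] against [N], 0.00405 for [S] against [N] and 0.0284 for [B] against [N]. The edgeR fit without a filter called [R] against [S] too (adjusted p 5.23e-05, in a fit that called 2.07% of all genes). With sums per name prefix it was -3.65 ± 1.58 with an adjusted p of 0.937, and over the alternatives the adjusted p ran from 5.36e-12 to 0.937. For [P] against [N] the fitted value was 1.02 ± 0.46 (adjusted p 0.422 by edgeR). Within the 1 prefix that [P] and [N] share, CHMP4B was at 7.14 CPM over 3 [P] cells, against 1.12 CPM over 2 [N] cells, in p53-/-, and at 6.18 CPM over 6 [P] cells, against 0 CPM in 1 [N] cell, in p53+/+. Its log2 level correlated at Spearman rho -0.28 with log2 of the total count over all cells after subtraction of the means of stage and line. In total CHMP4B had 35057 counts over all cells, and 2.19% of the 50-base windows of its transcript occur unchanged in the pseudogene CHMP4BP1, for which the table has no row.

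The other CHMP4 paralogues are CHMP4A and CHMP4C. CHMP4A had 72.001 and 89.5 CPM at [N], 137 and 81.8 at [P], 74.1 and 75.5 at [B], 81.1 and 56.3 at [S], and 44.7 and 53.05 at [R] (p53-/- and p53+/+ sums). Its fitted log2 fold change for [R] against [N] was -0.89 ± 0.32 (adjusted p 0.563 by edgeR). Part of its exons lie in other annotated genes of the same strand. Its exons share 1621 bases with a same-strand lncRNA and 644 with a same-strand protein-coding gene. Neither has an entry in the count table, so the level of CHMP4A is uncertain. CHMP4C, the paralogue known for holding back abscission while chromatin remains in the bridge, had 23.8 and 14.99 CPM at [B], against 8.75 and 7.38 CPM at [N], a log2 fold change of 1.14 ± 0.46 (adjusted p 0.226 by edgeR). In [N] p53+/+ 1 cell gave 60.8% of its counts. CHMP4A made up 78.03% to 93.6% of the CHMP4 counts per kilobase in the 10 sums, CHMP4C 4.08% to 13.6% and CHMP4B 1.08% to 12.9%. CHMP4B reached its highest share in [S] p53+/+ (12.9%) and [B] p53-/- (8.70%), and had 1.56% in p53-/- and 1.08% in p53+/+ [R] cells, against 2.94% and 2.33% in [N] cells. These shares do not depend on the scaling of the libraries, but they do depend on the uncertain level of CHMP4A.

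**Figure D3:**
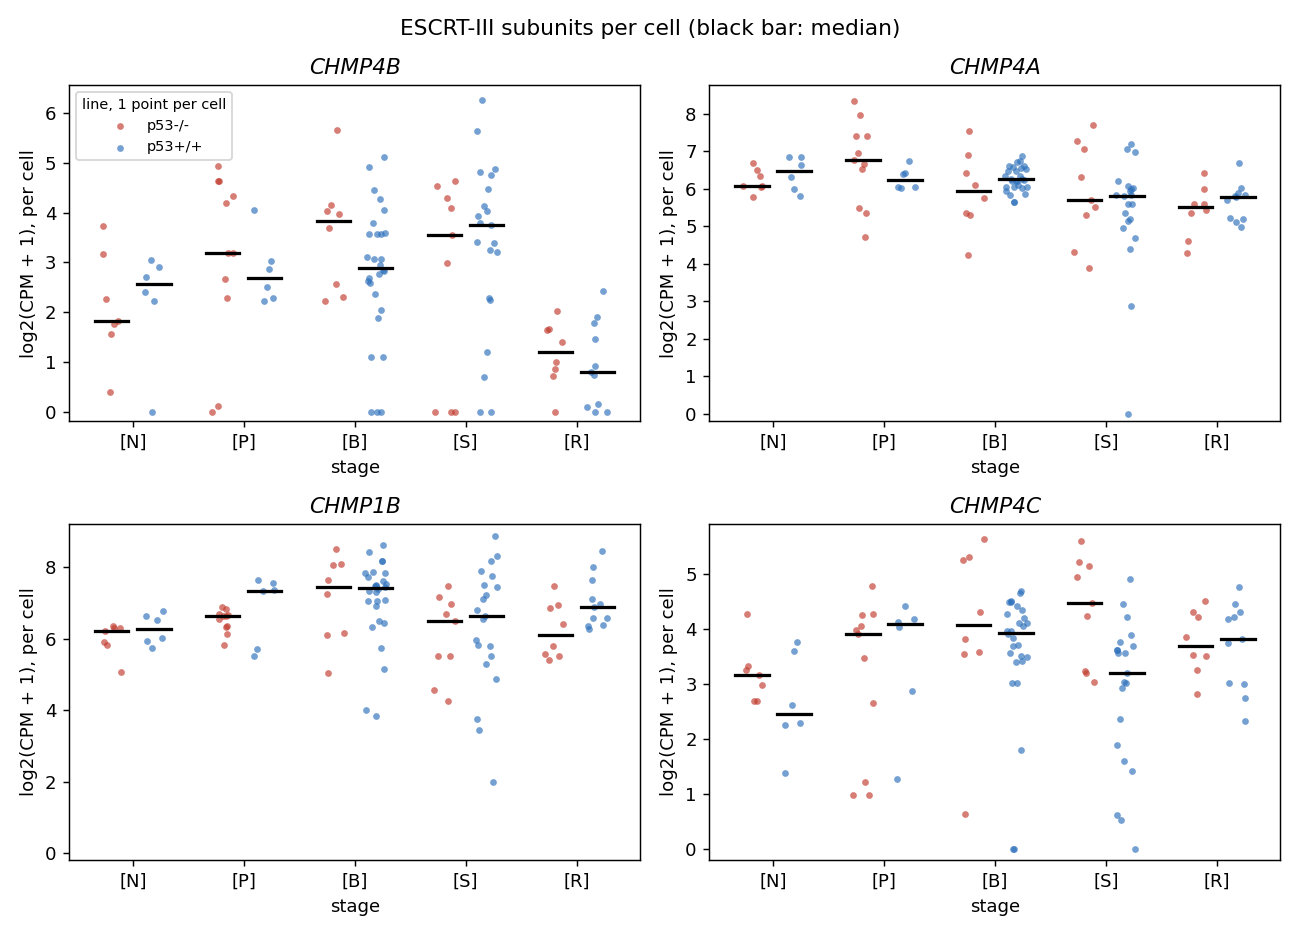
log2(CPM + 1) per cell for CHMP4B, CHMP4A, CHMP1B and CHMP4C at the 5 stages, 1 point per cell, p53-/- left of p53+/+ within each stage, with the median as a black bar. For CHMP4B all [R] cells lie at or below 4.36 CPM, while [S] cells reach 75.3 CPM and 5 of the 30 have no count.

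CHMP1B, a late-acting ESCRT-III subunit that recruits VPS4 and the microtubule-severing enzyme spastin, was highest at [B]. The [B] sums were 193 CPM in p53-/- and 178 CPM in p53+/+, against 63.8 and 75.8 CPM at [N]. Of the [B] cells, 5 of 8 in p53-/- and 21 of 28 in p53+/+ exceeded the highest [N] cell of their line (81.1 and 109 CPM), and 1 and 4 [B] cells lay below the lowest [N] cell. The log2 fold change was 1.30 ± 0.38 (adjusted p 0.126 by edgeR), and with the line as a block it was 1.32 ± 0.27 with an adjusted p of 0.0323, so that CHMP1B rose in that fit, in which 3.4% of all genes were called. DESeq2 (adjusted p 0.0239) and the edgeR fit without a filter (adjusted p 0.0183, 3.76% of all genes called) called it too. With sums per name prefix it was 1.26 ± 0.55 with an adjusted p of 0.261, and over the alternatives the adjusted p ran from 0.0183 to 0.399. At [P] the sums were 94.8 and 142 CPM, at [S] 85.3 and 125 CPM, and at [R] 87.1 and 157 CPM. For [S] against [B] the fitted value was -0.67 ± 0.38 (adjusted p 1 by edgeR), and within prefixes CHMP1B was lower in [S] than in [B] in 9 of 11 combinations (log2 fold change -1.01 ± 0.32, adjusted p 1.00 by edgeR over 14685 genes), a value looked up after the others were seen. Its exons share 553 bases with the antisense transcript CHMP1B-AS1, and reads without strand cannot separate the 2 genes.

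Its paralogue CHMP1A had 142 and 135 CPM at [B], against 156 and 113.3 CPM at [N], and 97.03 and 106.07 CPM at [P]. The log2 fold change for [B] against [P] was 0.49 ± 0.27 (adjusted p 0.987 by edgeR). Within the prefixes that [B] and [P] share, both in p53-/- with 1 [B] and 4 [P] cells each, the log2 ratios of CHMP1A were 0.96 and -0.55. The [B] cell of the second prefix is the 1206 cell, and the median ratio of all genes was -1.79 there and 0.03 in the first. CHMP1B made up 51.2% and 50.4% of the CHMP1 counts per kilobase at [B], against 23.95% and 34.1% at [N]. The share was 43.0% and 50.9% at [P], 30.9% and 43.9% at [S], and 22.8% and 41.3% at [R], always for p53-/- and p53+/+.

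ESCRT-0 was represented most by HGS, which binds ubiquitin and endosomal lipid. Its exons share 1815 and 690 bases with antisense lncRNAs and 303 with the antisense gene ARL16, so its level is uncertain. HGS had 208 CPM in p53-/- and 150 CPM in p53+/+ [R] cells, against 88.5 and 96.9 CPM in [N] cells, a log2 fold change of 0.78 ± 0.30 (adjusted p 0.563 by edgeR). In [N] p53+/+ 1 cell gave 75.9% of the HGS counts, and the medians per cell were 163 and 152 CPM at [R], against 71.8 and 40.5 CPM at [N]. HGS also had the smallest p for [B] against [P] (0.63 ± 0.30, adjusted p 0.959) and for [S] against [B] (0.60 ± 0.30, adjusted p 1). Within the prefixes that [B] and [P] share, its log2 ratios were -0.37 and 0.54. Each ratio rests on a single [B] cell, and these prefixes include that of the low [B] cell described with CHMP1A. The median ratio of all genes was strongly negative in the prefix of that cell, so the ratio there does not stand for HGS alone. Within prefix and line the HGS value for [S] against [B] was 0.51 ± 0.20 (adjusted p 1.00 by edgeR). Its sums were 72.7 and 57.2 CPM at [P], 119 and 78.6 CPM at [B], and 169 and 105.5 CPM at [S]. Its partner STAM had 74.3 and 61.2 CPM at [R], against 35.2 and 21.2 CPM at [S], a log2 fold change of 1.10 ± 0.35 (adjusted p 0.201 by edgeR), and -0.73 ± 0.35 (adjusted p 0.396) for [S] against [N], where the [N] sums were 57.6 and 36.4 CPM. STAM held 66.1% to 77.8% of the STAM and STAM2 counts per kilobase.

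Among the 9 ESCRT-I subunits the smallest p of a stage comparison fell to VPS37B, 1 of the 4 alternative VPS37 subunits. Its exons share 1658 bases with a same-strand gene and 484 with an antisense lncRNA. Neither has an entry in the count table, so the level of VPS37B is uncertain. VPS37B had 67.4 CPM in p53-/- and 25.3 CPM in p53+/+ [S] cells, against 24.7 and 11.6 CPM in [N] cells. The log2 fold change was 1.35 ± 0.48 (adjusted p 0.302 by edgeR). In [S] p53-/- the cells ran from 10.9 to 182 CPM around a median of 33.4, and in [N] p53-/- from 13.7 to 35.2 CPM around 21.1. VPS37A and MVB12A had the next smallest p for [S] against [B], with log2 fold changes of 0.72 ± 0.39 and 0.57 ± 0.29 (both adjusted p 1). Within prefix and line the values were 0.15 ± 0.43 for VPS37A and 0.14 ± 0.60 for MVB12A. Without the [S] p53-/- sum they were 0.16 and 0.19, and without the cells under 9000 genes MVB12A was at 0.08. The exons of VPS37A share 1760 bases with the antisense gene MTMR7, so its level is uncertain. In p53-/- they had 107.04 and 65.7 CPM at [S], against 56.6 and 38.4 CPM at [B]. In p53+/+ they had 48.6 and 36.3 CPM at [S], against 45.0 and 35.6 CPM at [B]. A single cell gave 47.8% of the MVB12A counts of [S] p53-/-. TSG101 itself stayed within 107.9 to 177 CPM in all 10 sums. Of the ESCRT-II subunits, SNF8 stayed within 157 to 217 CPM, and it had a log2 fold change of -0.58 ± 0.25 for [R] against [N] (adjusted p 0.573 by edgeR).

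CHMP6, which links ESCRT-II to ESCRT-III, and CHMP7, which brings ESCRT-III to the reforming nuclear envelope, led the comparison of [P] with [N]. CHMP6 had 18.2 and 15.1 CPM at [P], against 34.6 and 22.7 CPM at [N], a log2 fold change of -0.92 ± 0.33 (adjusted p 0.347 by edgeR). CHMP7 had 16.5 and 35.6 CPM at [P], against 53.4 and 45.3 CPM at [N] (-1.06 ± 0.39, adjusted p 0.354). In p53-/- the CHMP7 median was 16.5 CPM per [P] cell and 49.4 CPM per [N] cell, while in p53+/+ it was 33.1 and 34.4 CPM. Within the prefix that [P] and [N] share, the log2 ratio of [P] to [N] was -0.24 in p53-/- and -0.94 in p53+/+ for CHMP6, and -1.53 in p53-/- and -1.17 in p53+/+ for CHMP7. CHMP6 had 25.6 and 24.1 CPM at [B] (0.62 ± 0.33 against [P], adjusted p 0.985). Within the p53-/- prefixes that [B] and [P] share, its log2 ratios were -0.13 and -0.55, opposite in sign to the fitted value. Each ratio rests on a single [B] cell, and these prefixes include that of the low [B] cell described with CHMP1A. The median ratio of all genes was strongly negative in the prefix of that cell, so a negative sign there is not specific to CHMP6. The ratio of CHMP6 was negative in the other prefix too, where the median ratio of all genes was not negative. At [R], CHMP7 had 66.6 and 54.2 CPM and CHMP6 27.6 and 36.7 CPM.

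VPS4A, 1 of the ATPases, had 61.4 and 68.97 CPM at [P], against 109 and 78.9 CPM at [N] (log2 fold change -0.67 ± 0.30, adjusted p 0.415 by edgeR). Its exons share 1730 bases with the antisense gene COG8 and 1191 with a same-strand protein-coding gene. The latter has no entry in the count table, and the level of VPS4A is uncertain. VPS4B had 93.8 and 85.6 CPM at [R], against 32.6 and 55.0 CPM at [S] (0.83 ± 0.38, adjusted p 0.336). VPS4A made up 75.1% of the VPS4 counts per kilobase in [S] p53-/-, and 33.4% to 52.7% in the other 9 sums. These shares depend on the uncertain level of VPS4A. ALIX had 216 and 142 CPM at [R] and 106.7 and 88.96 CPM at [B], with 124 and 105.01 CPM at [N]. VTA1 had an unadjusted p of 0.0414 for [B] against [N], with a log2 fold change of -0.87 ± 0.37 (adjusted p 0.248 by edgeR).

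**Figure D4:**
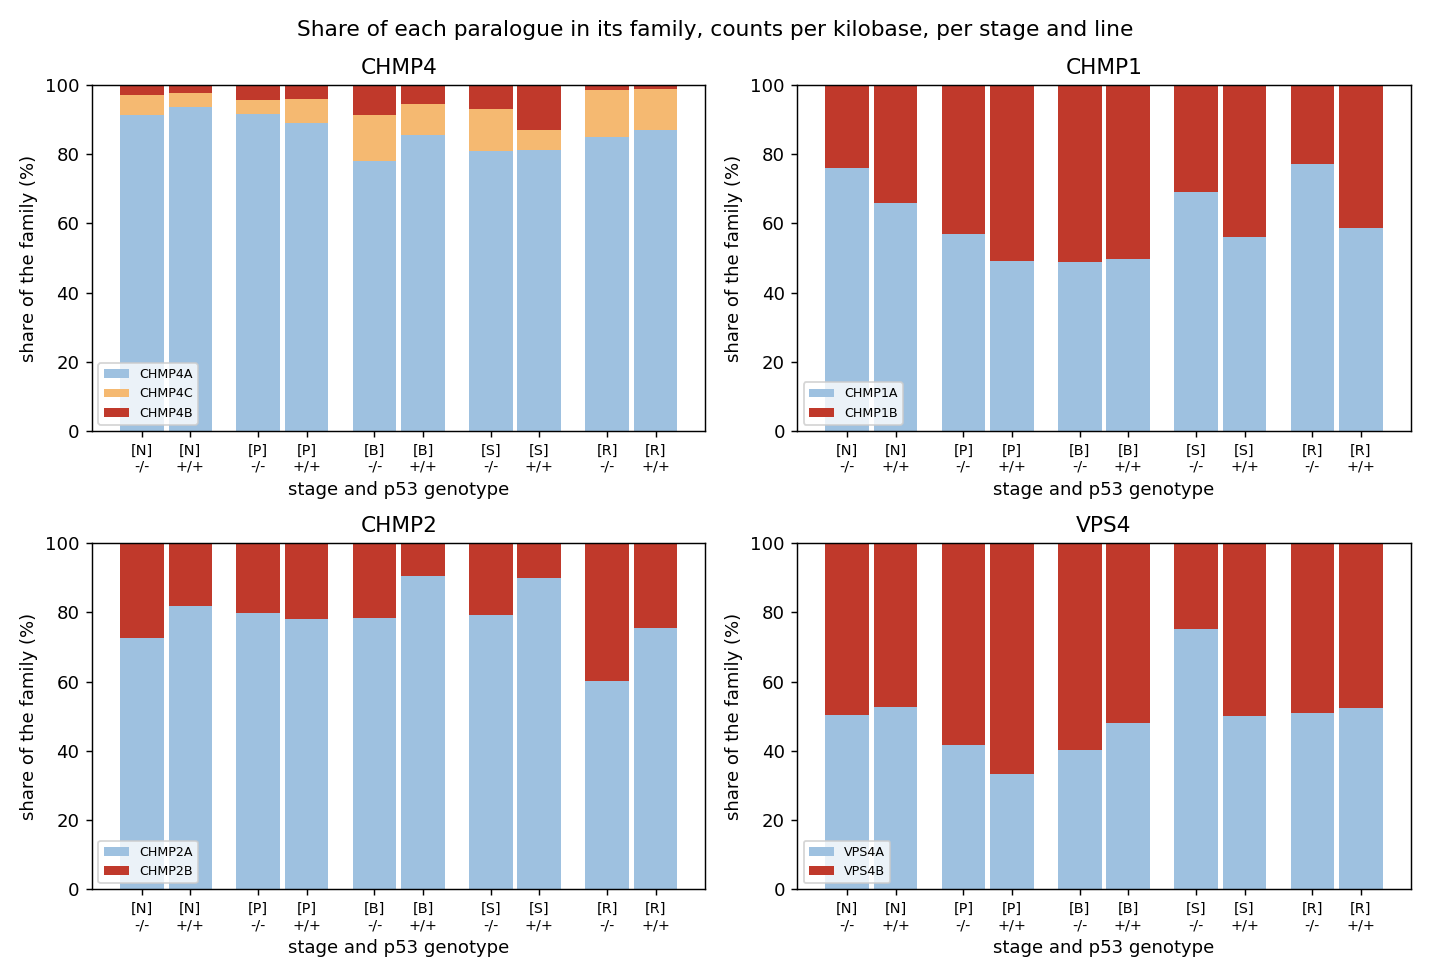
Share of each paralogue in the counts per kilobase of the CHMP4, CHMP1, CHMP2 and VPS4 families, per stage and line (p53-/- left of p53+/+). CHMP4A holds at least 78.03% of its family throughout, CHMP1B holds 51.2% and 50.4% at [B], and CHMP2A holds 60.2% in [R] p53-/- and 90.6% in [B] p53+/+. The levels of CHMP4A and VPS4A are uncertain, since the exons of both overlap other genes, in part of the same strand.

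Between the lines, with the stage as a block, 0 of 31 subunits passed the test (0.206% of all genes did), and DESeq2 called 2 of 31 (8.22% of all genes). At an unadjusted p under 0.05 stood 5 subunits, all lower in p53-/- (VPS28, CHMP2A, CHMP1B, VPS25 and VPS36), where 7% of all genes were lower and 13.9% stood there in either direction. The median log2 fold change was 0.0032 over the 31 and -0.0047 over all genes. VPS28 had 64.0 CPM in p53-/- and 70.1 in p53+/+ cells at [N], 58.5 and 103.4 at [P], 98.4 and 161 at [B], 83.6 and 138 at [S], and 71.98 and 97.3 at [R]. It was lower in p53-/- at all 5 stages, with a log2 fold change of -0.68 ± 0.17 (adjusted p 0.119 by edgeR, n = 5 sums per line). The cells overlapped at every stage. CHMP2A had 148 and 214 CPM at [N], 202 and 201 at [P], 155 and 342 at [B], 168 and 290 at [S], and 107.9 and 164 at [R], lower in p53-/- at 4 of 5 stages (-0.72 ± 0.21, adjusted p 0.157). At [B], 18 of 28 p53+/+ cells lay above the highest p53-/- cell.

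CHMP1B was lower in p53-/- at 4 of 5 stages, the exception being [B] (-0.53 ± 0.17, adjusted p 0.185 by edgeR). With sums per name prefix in place of sums per line, CHMP2A (-1.19 ± 0.22, adjusted p 0.000619), VPS28 (-1.08 ± 0.26, adjusted p 0.00741) and VPS25 (-1.05 ± 0.26, adjusted p 0.00923) passed the threshold. That fit called 6.47% of all genes. Some of its sums are a single cell, so it takes cells of the same line as replicates in part. In the 7 combinations of stage and prefix that hold both lines, VPS28 was lower in p53-/- in 6, VPS25 in 6 and CHMP2A in 5, while CHMP1B was lower in 2 of 7. The share of CHMP2A in the CHMP2 counts per kilobase was 78.4% in p53-/- and 90.6% in p53+/+ [B] cells, 79.1% and 89.9% in [S] cells, 60.2% and 75.5% in [R] cells and 72.6% and 81.97% in [N] cells, but 79.9% and 78.1% in [P] cells. CHMP2B, mutated in a form of frontotemporal dementia, had 206 and 154 CPM at [R] and 161 and 136 CPM at [N].

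**Figure D5:**
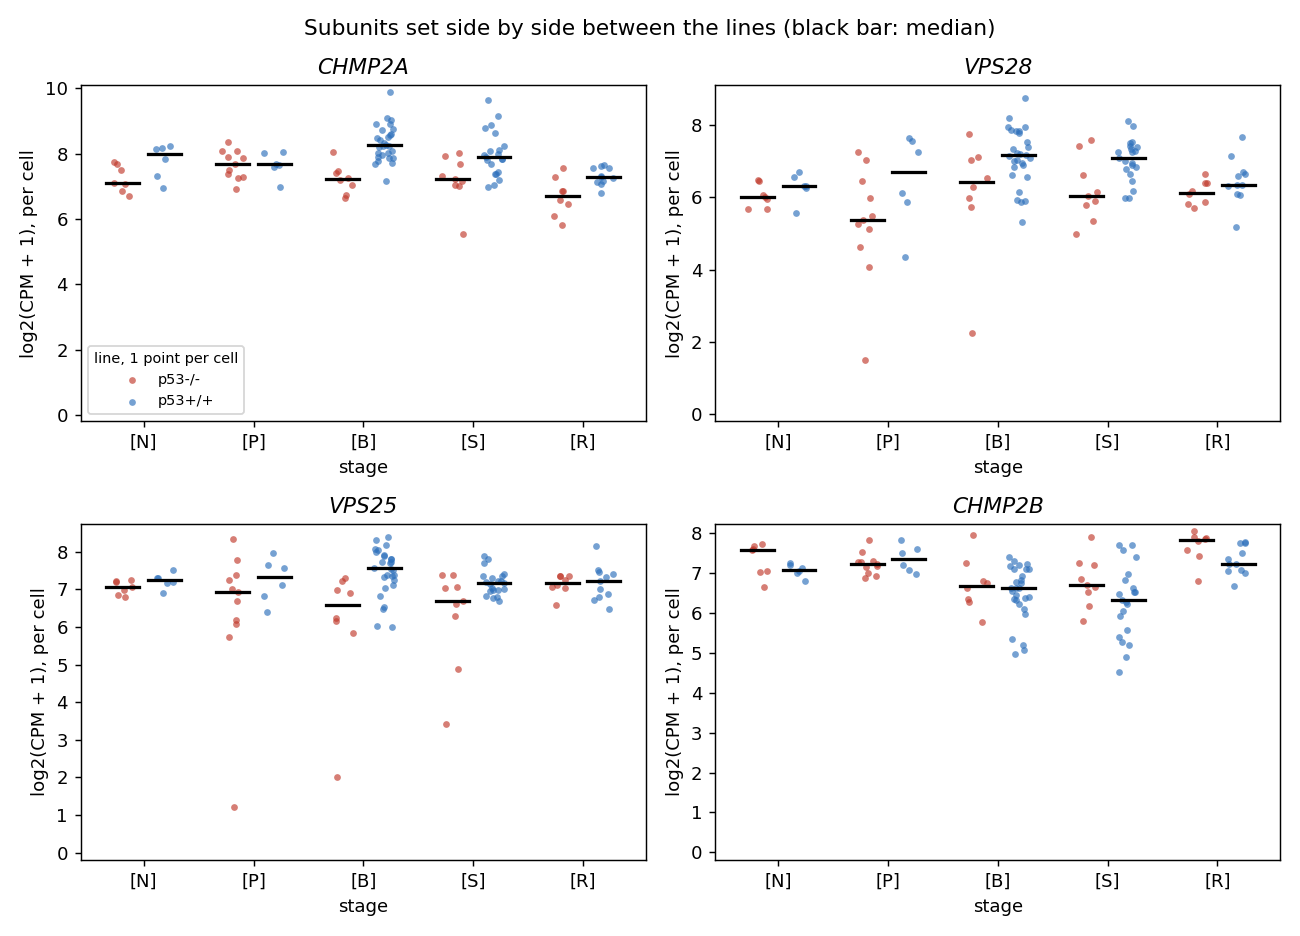
log2(CPM + 1) per cell for CHMP2A, VPS28, VPS25 and CHMP2B at the 5 stages, p53-/- left of p53+/+, with the median as a black bar. The median of VPS28 is lower in p53-/- at every stage (84.3 against 141 CPM at [B]), and 18 of the 28 p53+/+ [B] cells lie above all p53-/- [B] cells for CHMP2A.

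The remaining families split as follows over the 10 sums. VPS37A held 37.7% to 72.6% of the VPS37 counts per kilobase and VPS37B 20.6% to 48.7%, with at most 12.6% for VPS37C and 3.65% for VPS37D. These shares depend on the uncertain levels of VPS37A and VPS37B. MVB12A held at least 96.9% of the MVB12 counts per kilobase in every sum.

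Of 28 partner genes that recruit, regulate or feed the ESCRT machinery, 27 could be tested, since SPART was listed at 0 in every cell, and none passed the test in any comparison. CEP55, which recruits ALIX and TSG101 to the abscission site, had the smallest p for [B] against [N], with a log2 fold change of -2.13 (adjusted p 0.0851 by edgeR), and for [B] against [P] (-1.71, adjusted p 0.752). The summed level of 5 proliferation markers was 471 and 257 CPM at [B], against 2136 and 1805 CPM at [N]. The part of proliferation in the ESCRT values was not tested. The other partners of smallest p were CC2D1B, which binds CHMP4 proteins, for [P] against [N] (1.15, adjusted p 0.350), the sorting adaptor GGA1 for [S] and for [R] against [N] (1.38 and 1.01, adjusted p 0.203 and 0.563), the ubiquitin ligase WWP2 for [S] against [B] (1.28, adjusted p 1), and the Bro1-domain protein BROX for [R] against [S] (0.99, adjusted p 0.190). Between the lines it was the ubiquitin ligase NEDD4L (0.83, adjusted p 0.0914 by edgeR). At an unadjusted p under 0.05 stood 2 to 6 of the 27 partners in each comparison (7.41% to 22.2%), where 4.19% to 18.5% of all genes did. The 6 stood there for [B] against [N], where 18.5% of all genes did.

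Across the cells of both lines, after subtraction of the means of each stage and line, the 465 pairs of subunits had Spearman correlations of -0.41 to 0.66. The median was 0.11 over the pairs within a complex and 0.14 over the 354 pairs between complexes. The highest were TSG101 with VTA1 (0.66), HGS with CHMP1A (0.66) and CHMP1B with CHMP5 (0.65). All points share the total count of their library, and these values are descriptions.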

How the data were processed

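Counts per gene were deposited by the authors as whole numbers for 43 p53-/- and 72 p53+/+ cells. Per the labels, fastp, HISAT2 2.0, RSEM, Bowtie2 and DESeq2 were used with GRCh38 (mm10 is also listed), and the study's methods also name StringTie, for expression levels from the HISAT2 alignments. Whether StringTie made the whole-number counts is not given in the sources used here. Raw counts were summed per stage and line. Genes with a count minimum of 10 (filterByExpr) and counts in at least 12 cells were kept, 19894 in all. The sums were compared with edgeR 4.0.16 (TMM, robust quasi-likelihood, R 4.3.3), 1 mean per stage, or the line with the stage as a block, and Benjamini-Hochberg adjustment over all genes tested. Every stage thus had n = 2. P-values measure the spread between these sums, which also holds the difference between the lines, and cells were not used as replicates in these fits. Some sums per name prefix hold 1 cell, so the alternatives built on prefixes take single cells as replicates in part. The fit was also run on simulated counts with a fixed spread and no difference between the lines. That run does not show how the fit performs on these sums.

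Sums of 1 line at several stages come from the same cell line and so can be paired. The main stage comparisons did not use this pairing, while the alternative with the line as a replicate block did. The differences between the lines correlated at 0.018 to 0.405 (Pearson, across genes) between pairs of stages. Alternatives were the line as a replicate block, DESeq2 1.42.0, library size only, no filter, cells thinned to 15435056 counts (12 left out), sums per name prefix, the comparison of [S] with [B] within prefix and line, and each sum left out in turn. After the data were seen, fits without 1 [B] cell and without 5 cells of under 9000 genes were added. Named were the 3 subunits of smallest p in each comparison, any other called subunit, the 1 partner of smallest p, and all paralogue families. The subunits and lists were chosen with earlier results of these data known. Per-cell ranges are lowest, median and highest, and ratios within prefixes used a pseudocount of 0.5 CPM. No pair of cells had the same profile (highest Pearson correlation of log2(CPM + 1) 0.981). Promoters are RefSeq's (GRCh38.p14), and transcript lengths and overlaps are GENCODE's (GRCh38). A check of the genotype labels by expression is not reported here.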

Additional observations from a re-analysis of the deposited data

Results flagged for a closer look

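In groups of 4 to 10 cells, the highest or lowest cell was set against the others of its group for the 16 named subunits (96 tests, 14 found). The cut-offs flag about 1 in 20 groups where the values are normally distributed. Values of single cells, some of them 0, need not be, so the rate by chance is not known here. In [B] p53-/- (8 cells) the same kind of gap was found at the low end for 6 subunits, and all 6 lowest values belong to the cell of prefix 1206. It had 15.4 CPM of CHMP1A (next cell 111.2), 0.565 CPM of CHMP4C (next 10.7), 22.1 CPM of HGS (next 99.6), 0 CPM of MVB12A (next 14.3), 3.76 CPM of VPS28 (next 52.1) and 1.76 CPM of VPS37A (next 21.6). The same cell held the highest CHMP4B level of its group, 49.9 CPM, and without it the log2 fold change of CHMP4B for [B] against [N] was 1.09 ± 0.45, against 1.39 with it.

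In [N] p53-/- (7 cells) 1 cell was low in CHMP1B with 32.4 CPM (next 55.5) and 1 was high in CHMP4C with 18.4 CPM (next 9.01). In [N] p53+/+ (6 cells) 1 cell had 0 CPM of CHMP4B (next 3.68), and it was the only p53+/+ [N] cell of the prefix shared with [P]. In [P] p53+/+ (6 cells) 1 cell had 0.988 CPM of CHMP6 (next 11.1). In [S] p53-/- (9 cells) the lowest cells had 45.5 CPM of CHMP2A (next 127) and 4.59 CPM of HGS (next 57.2). In [R] p53-/- (8 cells) the highest CHMP7 level was 125 CPM (next 72.9) and the lowest VPS4A level 67.6 CPM (next 111.9).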

How the results depend on the processing

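No subunit was called when any of the 10 sums was left out (0 in all 8 comparisons), under library size only, with thinned cells, within prefixes, or without the cells that stand apart (the last with edgeR on the 10 sums). The line as a replicate block called 1 subunit for [B] against [N] (CHMP1B) and 1 for [R] against [S] (CHMP4B), and it changed no other call on a subunit. Without the filter the same 2 comparisons had 1 call each. DESeq2 called 2 for [B] against [N], 1 each for [S] against [N], [R] against [N] and [R] against [S], and 2 between the lines (VPS28 and CHMP2A). Sums per name prefix called 3 between the lines. Without the stage as a block (no replicate block) the line comparison called 0. All 24 named fold changes kept their direction under every alternative run, and CHMP4B for [R] against [S] stayed within -3.87 to -3.29 when a sum was left out. Library size only moved the median of all genes by over 0.1 in 6 of 8 comparisons, to 0.31 from 0.20 for [B] against [N] and to 0.10 from -0.08 for [R] against [S]. The subunits' median was then 0.05 for [B] against [N], -0.09 for [S] against [N] and 0.28 for [R] against [N]. For [S] against [N] it was -0.01 without a filter, -0.03 with thinned cells, -0.03 with sums per prefix and -0.13 without the cells under 9000 genes. With a sum left out it ran from -0.14 to -0.0064 for [B] against [N], -0.14 to 0.11 for [S] against [N], -0.005 to 0.21 for [R] against [N] and -0.07 to 0.22 for [B] against [P]. The cause was not tested. A stage had n = 2, and 1 cell gave up to 77.2% of the counts of a subunit in a sum (MVB12B, [N] p53+/+), which limits what a missed threshold shows.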

Other observations

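Summed over the members of a complex, ESCRT-0 had 320 CPM in p53-/- and 239 CPM in p53+/+ cells at [R], against 174 and 153 CPM at [N]. ESCRT-II stayed within 303 to 433 CPM in all 10 sums, and ESCRT-III within 1033 to 1369 CPM. The highest ESCRT-III sum was that of [B] p53+/+, in which CHMP2A alone had 342 CPM.

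Subunits with no result of their own above kept the following ranges over the 10 sums. CHMP5, which binds VTA1, ran from 131 to 213 CPM with its highest sums at [P] p53+/+ and [B] p53+/+. CHMP3 ran from 67.7 to 168 CPM, and 760 bases of its exons lie in the readthrough gene RNF103-CHMP3. IST1, a regulator of VPS4, ran from 80.5 to 181 CPM, and UBAP1, which can stand in place of an MVB12 subunit in ESCRT-I, from 39.3 to 78.3 CPM. VPS36, which binds ubiquitin in ESCRT-II, ran from 24.3 to 72.5 CPM, with its lowest sum at [S] p53-/-.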
